A study of Trichoderma reesei QM6a with 6 samples.

Results

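Xylan and arabinan are plant cell wall polysaccharides that the filamentous fungus Trichoderma reesei takes apart with secreted enzymes. The genes described here encode 10 of these enzymes, out of 9113 genes in the deposited table. They were taken by name and locus tag, with earlier results of these data known. The backbone class has 6 genes, the endoxylanase genes xyn1 (TRIREDRAFT_74223), xyn2 (TRIREDRAFT_123818), xyn3 (TRIREDRAFT_120229), xyn4 (TRIREDRAFT_111849) and xyn5 (TRIREDRAFT_112392) and the beta-xylosidase gene bxl1 (TRIREDRAFT_121127). The side-chain class has 4 genes, axe1 (TRIREDRAFT_73632, acetyl xylan esterase), glr1 (TRIREDRAFT_72526, alpha-glucuronidase), abf1 (TRIREDRAFT_123283) and abf2 (TRIREDRAFT_76210), the last pair for alpha-L-arabinofuranosidases. Transcripts were measured by poly(A) RNA sequencing in a strain with the gene ace1 deleted (Δace1) and in its parent QM6a, the wild type, with 3 libraries each. Cultures of either strain were shaken at 28 °C and 250 rpm for 24 h in MA medium with 1% D-glucose, washed, and held for 3 h in the same medium with 1% of the sugar alcohol D-mannitol. The labels do not say how many deletion clones were used or whether each library came from its own culture. The p-values therefore cover the spread among these libraries, which may be technical. In bulk RNA of this kind, more expressing hyphae and more transcript per hypha cannot be told apart.

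Xylan is a chain of beta-linked xylose units. Endoxylanases cut the chain in its interior, and beta-xylosidase releases xylose from the ends of the short pieces. Side-chain enzymes remove the groups that decorate the chain: acetyl xylan esterase takes off acetyl groups, alpha-glucuronidase takes off methylglucuronic acid, and arabinofuranosidases release arabinose from arabinoxylan and from arabinan. In T. reesei many genes of this kind are known to need the activator Xyr1 and an inducing sugar such as xylose. Ace1, a DNA-binding protein with zinc fingers, is known to repress cellulase and xylanase genes.

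Depth, as the sum of estimated counts, ran from 5482552 to 6424125 in the Δace1 libraries and from 6072118 to 6938203 in the QM6a libraries. Below, a gene without counts is set against a floor of 3 counts per library, which is 0.432 to 0.547 CPM of a library's own total (counts scaled to a library of 1e6) and allows for counting error alone. Folds against the floor use TMM-scaled CPM, a scaling to a common library size, on which it averages 0.558 CPM in QM6a. The ace1 transcript itself (TRIREDRAFT_75418) had 6, 7 and 14 counts in Δace1, against 8432, 7765 and 8001 in QM6a. Across all genes the test called 6274 of 7769, or 80.8%, with 41.2% called higher and 39.5% called lower in Δace1 and 23.2% called at least 2-fold higher.

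Of the 10 enzyme genes, 4 had enough counts to be tested, and these were called higher in Δace1: glr1, xyn4, bxl1 and abf1. The other 6, namely xyn1, xyn2, xyn3, xyn5, axe1 and abf2, had at most 3 counts in any library of either strain. The calls are from edgeR's quasi-likelihood test with a Benjamini-Hochberg adjusted p below 0.05. A gene with few counts in QM6a was tested only if it had counts in Δace1. Among the 577 tested genes under 2 CPM in QM6a, 89.4% were called higher, and all 4 tested enzyme genes were in this range. Their count of calls is therefore close to the share among tested genes as low in QM6a.

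**Figure D1:**
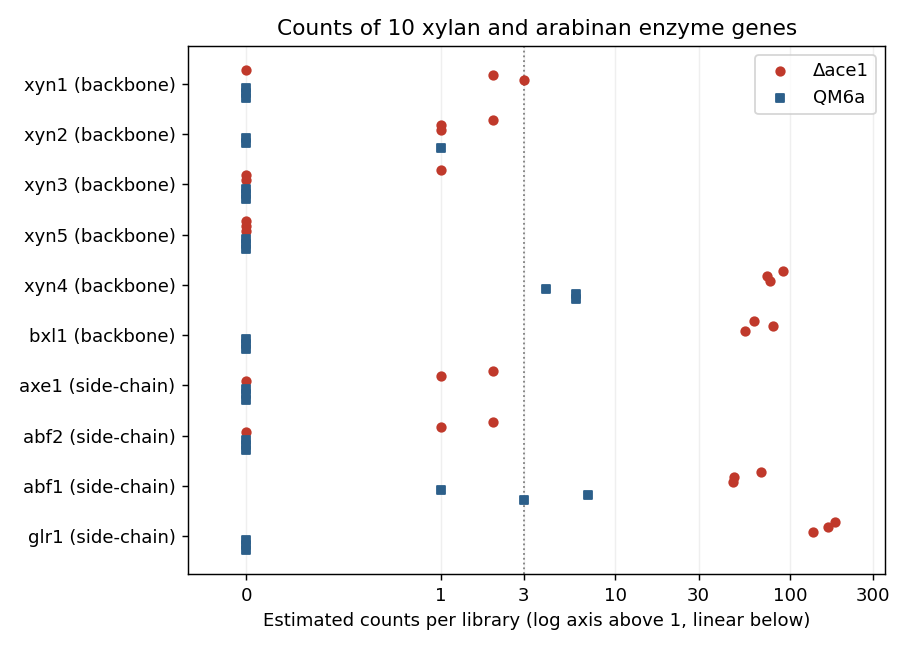
Estimated counts of the 10 genes in each library on an axis that is logarithmic above 1, with Δace1 as circles above QM6a as squares for each gene and a dotted line at 3 counts. In xyn4, bxl1, abf1 and glr1 every Δace1 library lies above every QM6a library, and the other 6 genes lie at or left of the dotted line. By CPM, 42.0% of all tested genes show that separation in the same direction.

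Among the endoxylanase genes, only xyn4, whose product belongs to glycoside hydrolase family GH30, had more than 3 counts in a library. The transcript of xyn4 had 91, 74 and 77 counts in Δace1, against 4, 6 and 6 in QM6a. Per length this was 9.50, 8.44 and 9.07 TPM (transcripts per 1e6 transcripts) in Δace1, against 0.313, 0.541 and 0.531 TPM in QM6a. The strains did not overlap, a separation that 42.0% of tested genes showed in the same direction. After TMM scaling the level was 11.5 ± 0.755 CPM in Δace1 and 0.999 ± 0.255 CPM in QM6a (SD, n = 3 each). The log2 change was 3.51 ± 0.25 (standard error; edgeR, adjusted p = 1.26e-09).

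The GH11 endoxylanase genes xyn1 and xyn2, which encode the major xylanases of the fungus on inducing sugars, were near the floor. The xyn1 transcript had 0, 2 and 3 counts in Δace1, against 0, 0 and 0 in QM6a. For xyn2 the counts were 2, 1 and 1 in Δace1, against 0, 0 and 1 in QM6a. The third GH11 gene, xyn5, had no count in any library, and xyn3, a GH10 endoxylanase gene, had 1 count in Δace1 replicate 1 and none elsewhere. A difference between the strains in these 4 genes was not detectable at this depth. Over the 3 libraries of a strain, the xyn1 total was 5 in Δace1 (exact 95% Poisson interval 1.62 to 11.7) and 0 in QM6a (0 to 3.69).

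Beta-xylosidase transcript was found in Δace1 and not in QM6a. The bxl1 gene (GH3) had 62, 80 and 55 counts in Δace1, against 0, 0 and 0 in QM6a. These were 3.77, 5.31 and 3.78 TPM in Δace1, with replicate 2 highest. The mean level was 9.36 ± 1.84 CPM (SD, n = 3) in Δace1. With QM6a set at the floor of 3 counts per library, bxl1 was at least 16.8-fold higher in Δace1. The call of bxl1 between the strains, made without the floor, had an adjusted p of 6.91e-09 (edgeR). The coefficient of variation of bxl1 over the Δace1 libraries was 19.6%, against 12.3% from counting alone at its mean count.

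The alpha-glucuronidase gene glr1 (GH67) had the highest mean CPM of the 10 genes in Δace1. It had 181, 164 and 135 counts in Δace1, against 0, 0 and 0 in QM6a. Per length this was 10.3, 10.2 and 8.71 TPM in Δace1. The mean level was 22.7 ± 1.48 CPM (SD, n = 3) in Δace1. With QM6a set at the floor of 3 counts per library, glr1 was at least 40.6-fold higher in Δace1. The call of glr1 between the strains, made without the floor, had an adjusted p of 1.52e-11 (edgeR). In all, 539 genes had no count in QM6a, 20 of these were tested, and 20 were called higher in Δace1. A gene without counts in QM6a was tested only through its counts in Δace1 and could only be called higher. That count of calls is therefore no evidence about glr1. By mean TPM in Δace1, glr1 ranked 9 and bxl1 ranked 16 among the 539.

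Of the arabinofuranosidase genes, abf1 (GH54) was measured in both strains, and abf2 (GH62) was near the floor. The abf1 transcript had 68, 48 and 47 counts in Δace1, against 1, 7 and 3 in QM6a. This was 6.70, 5.16 and 5.23 TPM in Δace1, against 0.0738, 0.596 and 0.251 TPM in QM6a. The strains did not overlap, as in 42.0% of tested genes in the same direction, although the QM6a libraries spread from 1 to 7 counts. The mean was 7.68 ± 1.04 CPM in Δace1 and 0.697 ± 0.596 CPM in QM6a (SD, n = 3 each), and the log2 change was 3.46 ± 0.36 (standard error; edgeR, adjusted p = 1.67e-07). Without QM6a replicate 2, which held 7 of the 11 QM6a counts, the log2 change was 4.33.

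The acetyl xylan esterase gene axe1 and the arabinofuranosidase gene abf2 had the same counts, 2, 1 and 0 in Δace1, against 0, 0 and 0 in QM6a. Together the 6 untested genes held 7, 5 and 4 counts in the Δace1 libraries, against 0, 0 and 1 in the QM6a libraries. Of the 16 counts in Δace1, 10 were in the 4 backbone genes xyn1, xyn2, xyn3 and xyn5, and 6 in the side-chain genes axe1 and abf2. With no low count filter, which gave 37.9% of 8861 genes as called higher, 5 of the 6 genes could be tested and edgeR called 0, with 0 at an unadjusted p below 0.05 and a lowest adjusted p of 0.0807 (xyn1). DESeq2 also called 0 of these 5, with 0 at an unadjusted p below 0.05 and a lowest adjusted p of 0.254.

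The measured changes of xyn4 and abf1 were close in size, and the lower bound for glr1 lay above the counting intervals of both. From the summed counts, xyn4 was 11.6-fold higher in Δace1 (exact 95% counting interval 6.98 to 20.6) and abf1 11.3-fold higher (6.17 to 23.2). The bound of 40.6-fold for glr1 compares with upper ends of 20.6 and 23.2, whereas the bound of 16.8-fold for bxl1 lies inside both intervals. These intervals leave out the spread between replicates, and the differences between genes were not tested. The closeness of xyn4 and abf1 rests on QM6a replicate 2, without which their log2 changes were 3.62 and 4.33. Of all tested genes, 4.70% were called with a log2 change at least as large as that of abf1, genes without counts in QM6a included. A gene as low in QM6a as abf1 was tested only if it had counts in Δace1. The 4.70% therefore does not measure how unusual the abf1 change was among such genes.

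**Figure D2:**
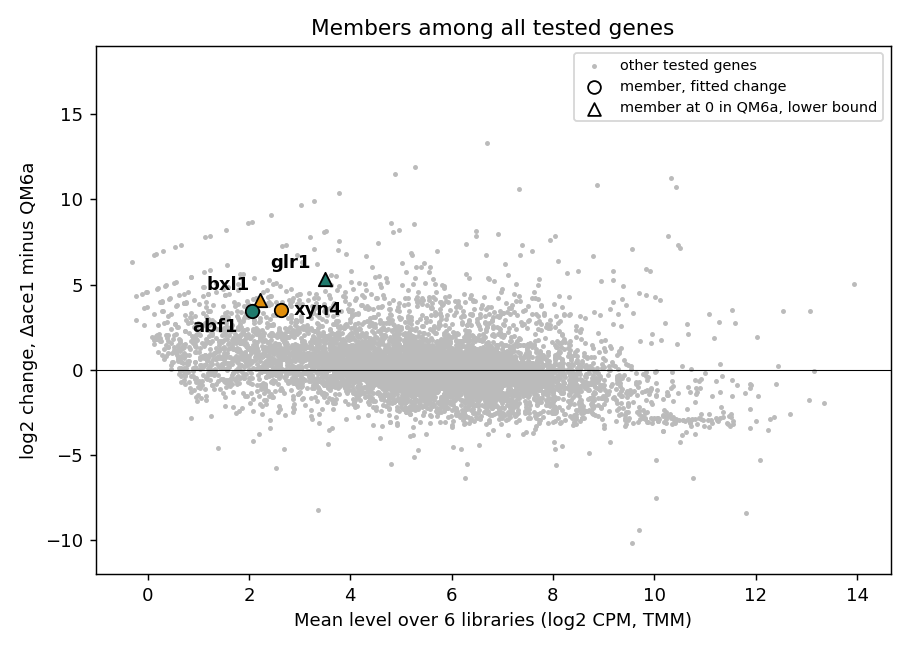
Each tested gene by its mean TMM-scaled level over the 6 libraries (log2 CPM) and its log2 change (Δace1 minus QM6a), with xyn4 and abf1 as circles at their fitted change and bxl1 and glr1 as triangles at their lower bound, orange for backbone and green for side-chain. The 4 enzyme genes lie at low levels, with changes of 3.51, 3.46, at least 4.07 and at least 5.34.

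Backbone and side-chain enzymes were then compared by their summed TPM in each library. The backbone sum was 13.3, 14.2 and 13.6 TPM in Δace1, against 0.313, 0.541 and 0.531 TPM in QM6a. The side-chain sum was 17.0, 15.4 and 13.9 TPM in Δace1, against 0.0738, 0.596 and 0.251 TPM in QM6a. In both classes the lowest Δace1 library was far above the highest QM6a library. By CPM, 42.0% of single tested genes had every Δace1 library above every QM6a library. These sums leave out xyn2, xyn3, axe1 and abf2, whose few counts could not be tied to a single transcript length.

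The backbone class held 43.8%, 48.1% and 49.4% of the summed TPM in the Δace1 libraries, against 80.9%, 47.6% and 67.9% in the QM6a libraries. The mean share was 47.1 ± 2.94% in Δace1 and 65.5 ± 16.8% in QM6a (SD, n = 3 each). The 2 ranges overlapped, and the QM6a shares rest on 5, 13 and 9 counts of xyn4 and abf1. A difference in the balance of the classes was therefore not detectable at this depth. Each class had 2 tested genes, with 1 of the 2 at 0 in QM6a (bxl1 and glr1) and 1 at a few counts (xyn4 and abf1).

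**Figure D3:**
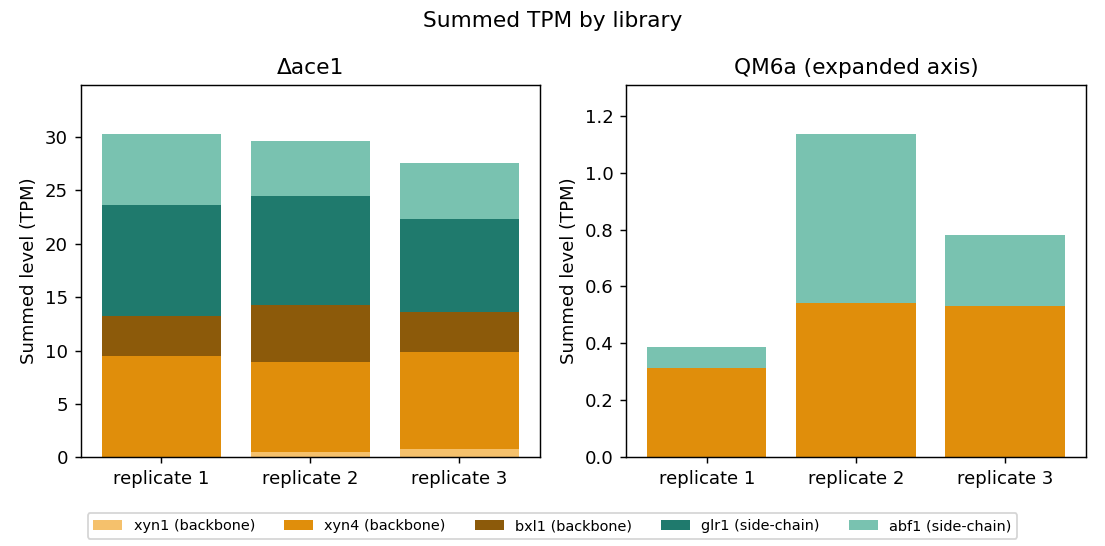
Stacked bars of the TPM of xyn1, xyn4 and bxl1 (backbone, orange and brown) and of glr1 and abf1 (side-chain, green) in each Δace1 library on the left and each QM6a library on the right, where the axis is expanded. The Δace1 bars reach 27.6 to 30.3 TPM with 4 main parts, and the QM6a bars reach 0.387 to 1.137 TPM and hold xyn4 and abf1.

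Within Δace1 the 4 tested genes took similar shares in each library. In the summed TPM, glr1 took 33.4 ± 1.58%, xyn4 30.9 ± 2.27%, abf1 19.5 ± 2.38% and bxl1 14.7 ± 2.87% (SD, n = 3). The order of glr1 and xyn4 was not fixed, since the ratio of glr1 to xyn4 in TPM was 1.09, 1.21 and 0.96 in the 3 libraries. The next step down was clear of that spread, with abf1 at 0.705, 0.612 and 0.576 of the xyn4 TPM. The abf1 level was above that of bxl1 in replicates 1 and 3 (6.70 against 3.77 TPM and 5.23 against 3.78 TPM) and slightly below it in replicate 2 (5.16 against 5.31 TPM). The coefficient of variation of CPM over the Δace1 libraries was 6.54% for glr1, 6.58% for xyn4 and 13.6% for abf1, close to or below the 7.91%, 11.1% and 13.6% that counting alone gives at their mean counts.

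All 4 stayed among the weakly expressed genes of Δace1. The mean of glr1, 9.76 ± 0.914 TPM, was above that of 27.9% of the 9113 genes in Δace1. The corresponding share was 26.9% for xyn4, 22.1% for abf1 and 19.8% for bxl1. In QM6a, xyn4 at 0.462 ± 0.129 TPM was above 15.3% of genes and abf1 at 0.307 ± 0.265 TPM was above 13.5% (SD, n = 3). The 10 genes together took 0.00618 ± 0.000326% of all counts in Δace1 and 0.000149 ± 7.18e-05% in QM6a (SD, n = 3 each).

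The sugars that these enzymes release, xylose and arabinose, enter the cell and are reduced and oxidised in the pentose pathway. Of 9 genes listed by name for uptake and pentose use, 5 were matched and tested. These 5 were called higher in Δace1, against 41.2% of all tested genes. Whether each product acts on pentoses was not tested. The list was chosen with earlier results of these data known, so the count is no independent evidence. The median log2 change of the 5 was 2.55, against 0.03 over all tested genes. TRIREDRAFT_3405, listed as the sugar transporter gene crt1, had 71.7, 62.9 and 54.7 TPM in Δace1, against 0.290, 0.752 and 0.410 TPM in QM6a. The aldose reductase gene xyl1, the first step from xylose, had 241, 213 and 218 TPM in Δace1, against 22.4, 23.1 and 21.4 TPM in QM6a. In CPM too, every Δace1 library lay above every QM6a library for both transcripts, as in 42.0% of all tested genes. The L-arabinitol dehydrogenase gene lad1 averaged 20.4 ± 2.41 TPM in Δace1 and 1.08 ± 0.239 TPM in QM6a, and the xylitol dehydrogenase gene xdh1 averaged 129 ± 17.0 TPM in Δace1 and 26.4 ± 2.88 TPM in QM6a (SD, n = 3 each). With TMM scaling the log2 changes were 6.26 for crt1, 2.55 for xyl1, 3.45 for lad1 and 1.52 for xdh1.

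The gene lxr1, named after L-xylulose reductase, varied most within QM6a among these 5. Its name was taken as given, and the reaction of its product was not tested. The lxr1 transcript had 63.1, 70.6 and 60.6 TPM in Δace1, against 1.73, 5.32 and 15.5 TPM in QM6a. Its log2 change was 2.37 ± 0.62 (standard error; edgeR, adjusted p = 0.0216). The call was lost without any single Δace1 library (adjusted p = 0.0599, 0.0675 and 0.0600) and without QM6a replicate 2 (adjusted p = 0.0781), and the log2 change was 3.45 without QM6a replicate 3 and 1.88, still called, without QM6a replicate 1. With the replicate number as a block it was not called either (2.46, adjusted p = 0.0628). In the other settings run lxr1 was called, among them DESeq2 (2.34, adjusted p = 0.00464) and edgeR with library totals (2.86, adjusted p = 0.0114).

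**Figure D4:**
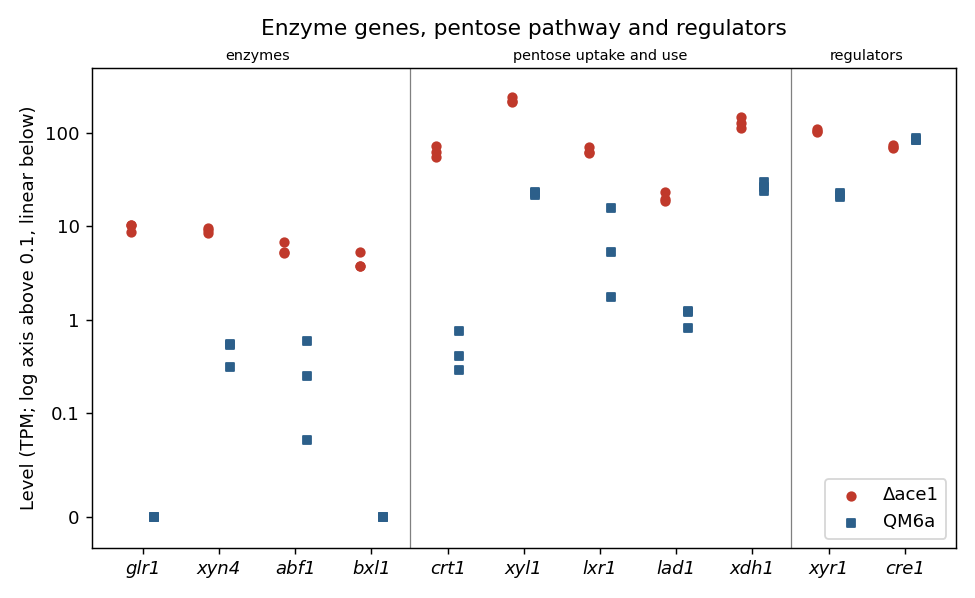
TPM per library on an axis that is logarithmic above 0.1, with Δace1 as circles left of QM6a as squares, for the 4 tested enzyme genes, 5 genes listed by name for pentose uptake and use, and the regulator genes xyr1 and cre1. The enzyme genes lie between 3.77 and 10.3 TPM in Δace1, below the pathway genes, which lie between 18.4 and 241 TPM there.

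Known regulators of xylanase genes were called at about the rate of all genes. Of 8 listed genes, ace1 included, 4 were called higher and 3 lower in Δace1, against 41.2% higher and 39.5% lower over all tested genes. The lower call of ace1 was set by its deletion. The median log2 change of the 8 genes was 0.07. The activator gene xyr1 had 110, 106 and 103 TPM in Δace1, against 20.7, 21.3 and 22.5 TPM in QM6a, and its log2 change was 1.53 ± 0.06 (standard error; edgeR, adjusted p = 7.58e-13). With library totals the xyr1 change was 2.03, and on log2(TPM + 1) it was 2.25. TRIREDRAFT_77513, listed as the activator gene ace3, was also higher, at 71.5, 61.1 and 55.7 TPM in Δace1, against 26.1, 22.7 and 23.3 TPM in QM6a. The size depended on the scaling: the TMM estimate for ace3 was a log2 change of 0.61, whereas log2(TPM + 1) values gave 1.34.

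The gene cre1, for the protein CRE1 that mediates carbon catabolite repression, was called lower, with a log2 change of -1.04. It had 73.7, 70.2 and 68.5 TPM in Δace1, against 82.8, 84.1 and 88.3 TPM in QM6a. The size of this change depended on the scaling, and it was -0.54 with library totals and -0.26 on log2(TPM + 1). The genes hap2, hap3 and hap5 of the CCAAT-binding complex had log2 changes of -0.80, -0.08 and 0.21, of which hap3 was not called. For hap3 the sign depended on the scaling, with 0.08 under upper-quartile scaling (not called) and 0.42 with library totals (called higher). On log2(TPM + 1) hap2 was not called (-0.04). The call of hap5 was lost with DESeq2 (0.19) and without Δace1 replicate 1 or QM6a replicate 3 (0.17 in each).

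Library totals and upper-quartile scaling shifted xyn4 and abf1 about as far as the median gene, and their direction and calls were kept. Library totals shifted the median log2 change of all tested genes by 0.50 against TMM, upper-quartile scaling by 0.16 and log2(TPM + 1) by 0.72. With TMM 51.0% of all calls were higher in Δace1, whereas library totals gave 71.8% and log2(TPM + 1) gave 80.5%. The log2 change of xyn4 was 4.001 with library totals and that of abf1 was 3.95, against 3.506 and 3.46 with TMM. On log2(TPM + 1), which understates the change of low genes, they were 2.78 and 2.37.

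**Figure D5:**
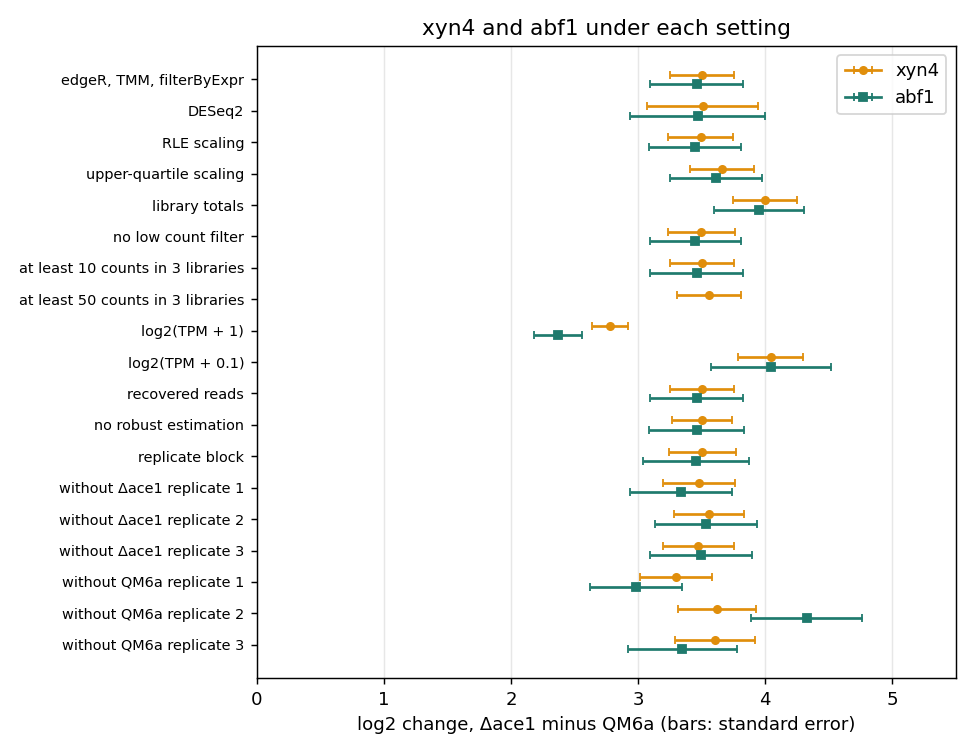
The log2 change (Δace1 minus QM6a) of xyn4 as circles and abf1 as squares under each setting, with bars for the standard error. The values lie between 2.78 and 4.04 for xyn4 and between 2.37 and 4.33 for abf1, and abf1 has none with at least 50 counts in 3 libraries.

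Among 208 other genes with a reference symbol and a single matching transcript, 3 had profiles closest to that of glr1, the highest in mean TPM of the 4 tested enzyme genes. They were chi18-rel1, a chitinase family gene (Euclidean distance 1.47 on log2(TPM + 1) over the 6 libraries), the beta-glucosidase gene cel1a (1.55) and the chitinase gene chi18-16 (2.12). The cel1a transcript had 9.86, 9.38 and 10.5 TPM in Δace1, against 0.874, 0.550 and 1.08 TPM in QM6a. Unlike glr1, all 3 had counts in each QM6a library. With 2 strains, such closeness says only that the levels in each strain were alike.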

How the data were processed

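The libraries were stranded TruSeq with poly(A) enrichment, per the labels' protocols. The submitters' processing notes name FastQC 0.11.5, kallisto 0.43.1 and DESeq2 1.14.1, with the build and transcript set not given in the sources used here. Per sample, the authors deposited 1 table with estimated counts, TPM and target lengths, per the file headers. The deposited series table gives a normalized signal per locus tag, a count divided by 1 factor per library, and multiplying back gave whole reads (within 0.05) for 92.5% to 96.1% of values. The tables were joined here by their 6 counts. Each of 9113 genes was matched to 1 or more of 9115 transcripts, and 587 genes, none above 11 counts in total, matched several. These included xyn2, xyn3, xyn5, axe1 and abf2, so their counts are known but not their TPM, unless 0.

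Estimated counts were rounded and tested with edgeR 4.0.16 in R 4.3.3 (quasi-likelihood, TMM, filterByExpr, robust, two-sided, no replicate block). A count test on the recovered reads called 6274 genes. The alternatives were DESeq2 1.42.0, limma 3.58.1 on log2(TPM + 1) and log2(TPM + 0.1) where the mean TPM reached 1, other scalings and filters, a replicate block, and each library left out in turn. A standard error is the size of the log2 change over the square root of F. Counting intervals are exact (SciPy 1.17.1). The edgeR, DESeq2 and limma fits were tested on simulated data. In the simulated Δace1 against QM6a comparison edgeR tested 7676 genes and recovered 96.9% of 2-fold changes with 12 false calls. The simulation changed 200 genes, up and down alike, whereas 80.8% of tested genes were called in the data. It therefore does not measure error rates when most genes change. Symbols came from a RefSeq table of assembly v2.0, which gives axe1, and the other 9 names come with the member list. Named genes are the members, 2 short lists of pathway and regulator genes, and the 3 closest profiles to the highest member. Members and lists were chosen with earlier results of these data known. Of the 8 regulators listed, 1 is counted but its own value is left out. Protein and promoter sequences were planned and not used here. Libraries of 1 strain differed beyond counting noise (chi-square per degree of freedom 2.96 to 28.5).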

Additional observations from a re-analysis of the deposited data

How the results depend on the processing

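The 4 calls held in all settings run, except that abf1 was not tested with at least 50 counts in 3 libraries, a filter added after seeing the data. Across 18 alternatives for xyn4 and 17 for abf1 the log2 change stayed positive and called (2.78 to 4.04 and 2.37 to 4.33). The fitted changes of bxl1 and glr1 depend on the prior count and give no size. Same-numbered replicates did not deviate together (correlations of -0.0111, 0.0323 and -0.0466). With a replicate block 6223 genes were called, and of the 4 enzyme genes all were called. With single libraries left out 6039 to 6265 genes were called. In CPM, which favours long genes, the Δace1 backbone sum was 21.3 and the side-chain sum 30.6, a backbone share of 41.1%, and the QM6a sums were 1.06 and 0.697. Without bxl1 the Δace1 backbone sum was 9.42 TPM and its share 38.0%. Without the highest gene of each class (xyn4 and glr1) the Δace1 sums were 4.71 and 5.70 TPM, and in QM6a the backbone sum was 0 TPM, a share of 0%. Giving xyn2, xyn3, axe1 and abf2 the shortest transcript with their counts, chosen after seeing the data, set the Δace1 sums at 14.3 and 18.2 TPM. Depth limits the 6 genes near the floor and the QM6a shares.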
